A study of Homo sapiens with 24 samples.

Results

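The m6A peaks described here were called in human pluripotent stem cells (hPSC) and at none of the 3 later stages of pancreatic differentiation. They were chosen by 2 measured values, the input reads and the peak calls of the 4 stages. An hPSC peak was taken when it held at least 50 input reads and when its span, from first to last base, shared no base on the same strand with any peak of definitive endoderm (DE), pancreatic progenitors (PP) or human islet-like organoids (hILO). Of the 21048 hPSC peaks with at least 50 input reads, 3778 met this rule, and they are called hPSC-only peaks below. The other 17270 hPSC peaks overlapped a peak of at least 1 later stage. All cells came from the MEL1 hESC line, an established human embryonic stem cell line, which the study's methods name as MEL1 INSGFP/W, with GFP in place at the insulin gene as a reporter. The hPSCs were undifferentiated MEL1 cells grown on CF1 mouse feeder cells with serum replacement and bFGF. DE cells had received activin A and CHIR99021, PP cells additionally KGF, retinoic acid, LDN-193189, GDC-0449 and EGF, and hILO were PP aggregates carried on in islet medium. Wild-type PP (WT PP) and PP from an ALKBH5 knockout line (A5-KO PP), which lacks an m6A demethylase, formed a second experiment that the rule did not use. Each of the 6 populations had 2 immunoprecipitated (IP) and 2 input libraries, 24 in all, but 1 peak list per population was given with reads pooled over libraries. No value per library was used, so no spread between replicates can be stated and no test between stages was made.

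N6-methyladenosine (m6A) is placed on mRNA by a methyltransferase complex around METTL3 and METTL14, mostly at adenosines within the DRACH motif, in which D stands for any base but C, R for a purine and H for any base but G. It lies preferentially in long internal exons and around stop codons, and reader proteins of the YTH family link it to decay, translation and splicing of the transcript. In embryonic stem cells m6A is known to limit the lifetime of transcripts of pluripotency factors. m6A-seq enriches RNA fragments with an antibody, and a methylated stretch shows as a peak of IP over input.

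Stretches of 25 bases from hPSC-only peaks are printed here with the DRACH motif in capitals, since they are the sequences that the antibody signal of these peaks covers. For each peak the motif nearest to its middle was taken, GGACT before GGAC before any other DRACH, and a stretch can reach past the edge of a narrow peak. The letters are those of the GRCh38 reference on the transcript strand, and a motif match does not place the methylated base. The first 5 come from genes of the pluripotent state, the next 3 from genes without a peak at any later stage, and the last 3 from peaks that overlapped both a WT PP and an A5-KO PP peak.
TRIM71, coding sequence, chr3:32890528-32890552, plus strand: caggagctgaAGACCgtgcggagcc
SALL2, coding sequence, chr14:21525438-21525462, minus strand: ctcaggtcatGGACAcagagcatag
FOXD3, coding sequence, chr1:63323714-63323738, plus strand: cgcagtccgaGGACAtgttcgacaa
UTF1, coding sequence, chr10:133230644-133230668, plus strand: agttccttaaAGACAagtttcgcga
SALL4, coding sequence, chr20:51802373-51802397, minus strand: caagcaggcgAAACCccagcacatc
TEX45, coding sequence, chr19:7508229-7508253, plus strand: ccctctgggtGGACTgcgcttcttc
SEMA6A-AS2, noncoding RNA, chr5:116575169-116575193, plus strand: aaaaaatcccGGACAgcattgctga
ADCYAP1R1, exon of another isoform than the longest coding one, chr7:31107501-31107525, plus strand: agctcaagatGGACAgggttcttct
PHF2, 3′UTR, chr9:93677941-93677965, plus strand: tccactttaaGGACAgccttcaggc
TMEM125, 5′UTR, chr1:43272604-43272628, plus strand: gagaggaatgGGACTctgggcctgt
EPHB6, coding sequence, chr7:142864048-142864072, plus strand: gcaccgggcaGGACAattggttgca

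The 6 lists held 228472 peaks in all and between 29083 (PP) and 55219 (A5-KO PP) each. Input reads in the listed peaks summed to 7970658 for hPSC, against 12602604 for DE, 6987612 for PP and 28463998 for hILO. IP reads in the peaks summed to 79822815 for hPSC, 30723097 for DE, 30944774 for PP and 77537744 for hILO. hPSC thus had the most IP reads behind its peaks, and the part of this depth in peaks called there alone was not tested. Of 12 markers of pluripotent cells, 10 carried an hPSC peak, 9 a DE peak, 6 a PP peak and 4 an hILO peak. SOX2 and DNMT3B had no hPSC peak, and the single hPSC peak of POU5F1 held 11 input reads, so none of these 3 genes could enter the set described here. Of 7 endoderm markers 2 had hPSC peaks, with 112 input reads against 143636 in the DE peaks of all 7. Of 10 fibroblast markers, looked at because of the feeder layer, 5 carried an hPSC peak, 6 a PP peak, and 5 each a DE peak and an hILO peak, and only COL1A1 and PDGFRB had peaks at hPSC, DE and hILO together. The hPSC peaks of these markers held 1592 input reads, the DE peaks 1619, the PP peaks 4164 and the hILO peaks 3361, and their part in the results was not tested. In such bulk samples, a cell type that became rarer and a transcript that became less abundant per cell cannot be told apart.

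hPSC-only peaks were narrower and less enriched than the other hPSC peaks. They made up 17.9% of the 21048 peaks. Without the demand on all 3 stages together, 31.3% of the peaks lacked an overlapping DE peak, 42.8% a PP peak and 37.2% an hILO peak. These shares follow from the rule and are given as a description. The median exonic width, that is the bases of the peak inside annotated exons, was 100 nt for hPSC-only peaks and 225 nt for the others. The log2 enrichment, the ratio of IP over input that the peak caller estimates after scaling the libraries, had a median of 1.51 (quartiles 1.27 and 1.85) against 1.70 (quartiles 1.41 and 2.07). Input reads per peak were 131 against 165 at the median, and IP reads 1194 against 1589.

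Width went with the share of hPSC-only peaks far more than read depth did. Of peaks up to 50 nt wide, 45.7% were hPSC-only, and the share passed through 35.8% up to 100 nt, 26.4% up to 150 nt, 16.6% up to 200 nt and 6.55% up to 300 nt to 2.52% of still wider peaks. A wider span has more bases in which to meet a later peak. By input reads the share was 21.8% at 50 to 99 reads and lay between 14.6% and 17.6% in every deeper class. By log2 enrichment it was 29.1% in the lowest quintile of peaks and 11.9% in the highest. At the edge of the rule, 50 hPSC-only peaks held exactly 50 input reads with a median log2 enrichment of 1.44, and 49 peaks without a later overlap held 49 reads with a median of 1.48. A later span lay within 25 nt of 334 hPSC-only peaks, and 180 of these directly abutted it. On the other side of the rule, 276 peaks shared 25 nt, the smallest overlap seen, with a later peak.

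**Figure D1:**
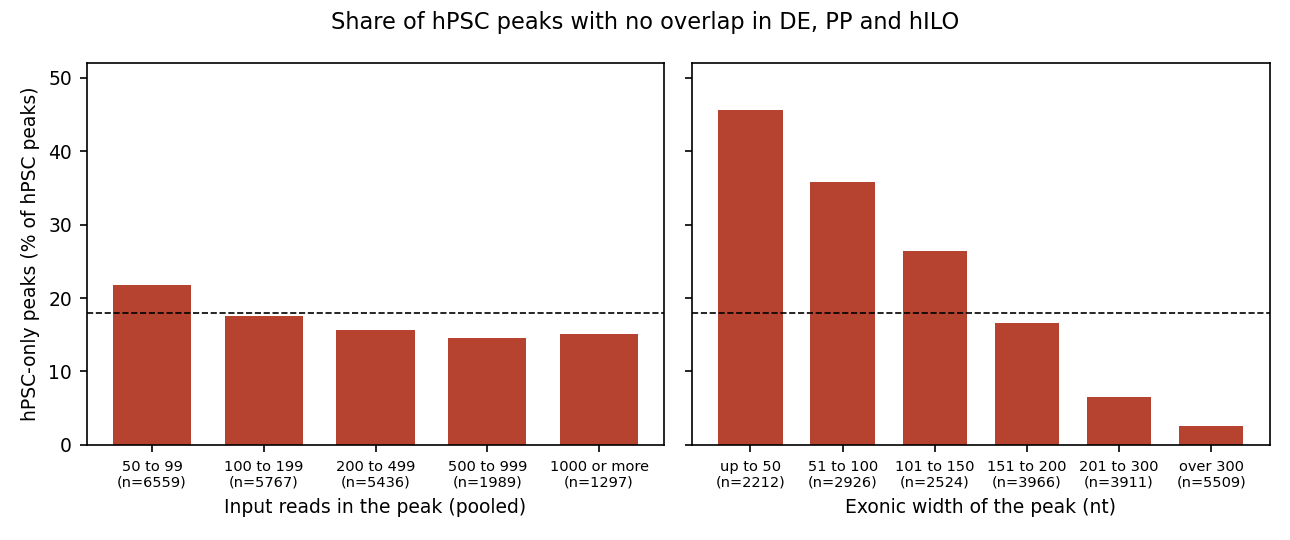
Percentage of hPSC peaks that are hPSC-only, in classes of pooled input reads (left) and of exonic width in nt (right), with the number of peaks in each class under the bar and the share over all peaks (17.9%) as a dashed line. The bars stay between 14.6% and 21.8% over the read classes and run from 45.7% down to 2.52% over the width classes.

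hPSC-only peaks lay more often in the 5′UTR and less often near the stop codon. Of the hPSC-only peaks, 2387 could be placed on the longest coding isoform of their gene by the midpoint of their exonic part, as could 13440 of the others. In the 5′UTR lay 14.4% of the placed hPSC-only peaks (95% Wilson interval 13.0 to 15.8) and 4.40% of the others (4.06 to 4.76). In the 3′UTR lay 28.8% (27 to 30.7) and 38.1% (37.3 to 39.0). The coding share was alike, 56.8% (54.8 to 58.8) against 57.5% (56.6 to 58.3). Within 200 nt of the stop codon lay 13.8% of hPSC-only peaks (12.5 to 15.3) and 23.8% of the others (23.1 to 24.5). In the plot of distances the other peaks reach their maximum directly downstream of the stop codon, and the line of the hPSC-only peaks is lower and flatter there. Of the peaks in coding sequence, 58.2% of the hPSC-only and 67.5% of the other peaks sat in an exon of at least 400 nt. These intervals cover counting error only and treat neighbouring peaks of a gene as independent, which they are not.

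**Figure D2:**
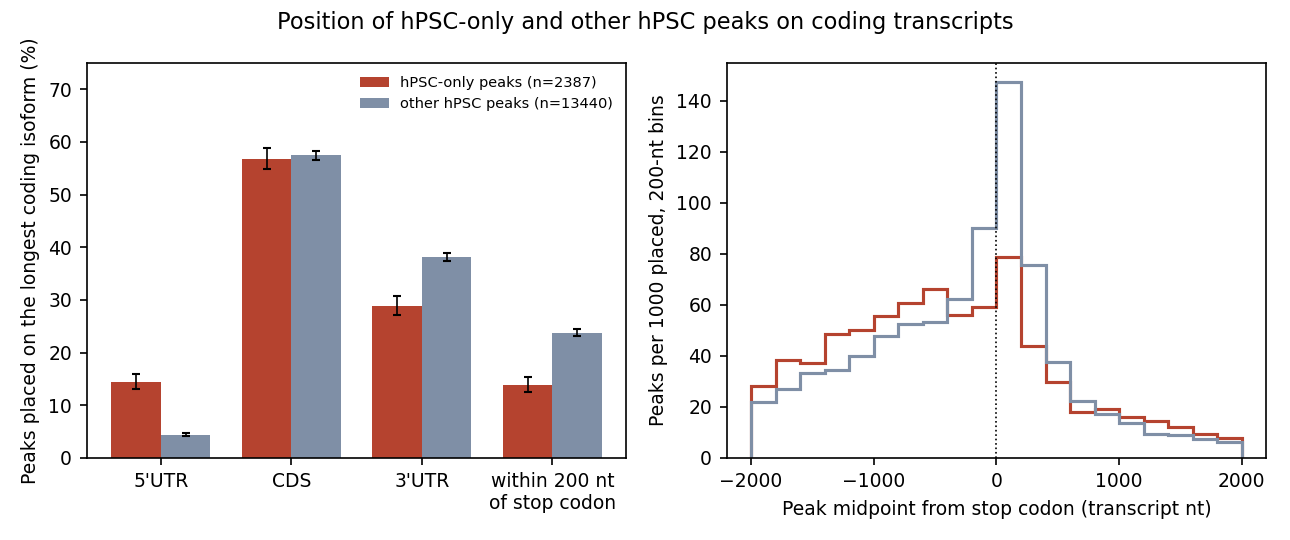
Left, percentage of placed peaks in each transcript region for 2387 hPSC-only (red) and 13440 other hPSC peaks (grey), with 95% Wilson intervals as bars. Right, peaks per 1000 placed in bins of 200 nt by the distance of their midpoint from the stop codon, where the line of the other peaks is highest just after the stop codon and the red line is flatter.

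The difference in position was present within classes of width. Among peaks up to 50 nt wide, 11.7% of hPSC-only and 7.65% of other peaks were in the 5′UTR. The 5′UTR shares were 15.9% against 7.32% over 50 and up to 100 nt, 15.9% against 5.41% up to 200 nt and 12.2% against 3.07% over 200 nt. Near the stop codon the shares were 14.4% against 19.0% in the narrowest class and 13.7% against 26.0% in the widest. More hPSC-only peaks also lay on long noncoding RNAs, 14.2% against 6.46%, and fewer on protein coding genes, 81.4% against 90.4%. Pseudogenes held 3.39% and 2.28%. By chromosome the hPSC-only share ran from 13.5% on chromosome 13 to 21.8% on chromosome X.

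hPSC-only peaks had a higher GC content and, at equal width, somewhat fewer peaks with a DRACH and somewhat more with a GGAC. Median GC content was 56.9% in hPSC-only and 49.3% in the other peaks, and between 56% and 58.8% against between 48% and 49.5% within the classes of width. Of the peaks with a GC content of 65% or more, 37.5% were hPSC-only, and of those between 35% and 44%, 10.9%. A GGAC on the transcript strand was found in 44% of hPSC-only and 65% of other peaks, and any DRACH in 79.5% and 94.4%. Per 1000 nt of peak there were 5.38 GGAC in hPSC-only and 5.22 in other peaks, and 19.3 against 22.5 DRACH (GGAC counts also within DRACH). At a width of exactly 50 nt a GGAC was in 21.6% of 946 hPSC-only and 18.0% of 1109 other peaks, at 100 nt in 40.5% of 427 and 37.0% of 776, and at 175 nt in 59.1% of 477 and 57.2% of 1970. For any DRACH the shares at these widths were 56.2% and 63.0%, 83.8% and 91.1%, and 96.0% and 97.7%. At equal width the lower share with a GGAC was thus not seen, whereas the lower share with a DRACH was, by a smaller amount.

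Most hPSC-only peaks lay on genes with an m6A peak at some later stage. An annotated gene could be assigned to 3748 of the hPSC-only peaks, on 3022 genes, and 30 had none. For 79.4% of these peaks the gene had a peak at 1 or more later stages, with 70.6% for DE, 60.0% for PP and 61.0% for hILO. Of the other hPSC peaks on a gene, 95.9% had a DE peak on it, 89.4% a PP peak and 91.5% an hILO peak. All 3 later stages had a peak on the gene of 1819 hPSC-only peaks (48.5%), 2 stages for 568 (15.2%) and 1 stage for 589 (15.7%). Over all 20899 hPSC peaks on a gene these shares were 76.9%, 11.5% and 7.77%. No later stage had one for 772 (20.6%). Over all hPSC peaks on a gene, 797 (3.81%) were on a gene without any later peak. Of these 797, 772 were hPSC-only, as the overlap rule nearly requires, so nothing is read from the higher share among hPSC-only peaks. The rule used the same later peak calls, so nothing is read from the lower shares by stage or at all 3 stages either. Counted by gene, 626 had no later peak, 448 a peak at 1 stage, 463 at 2 and 1485 at all 3. On 2099 genes (69.5%) another hPSC peak was overlapped by a later one, so that peaks were kept and not kept on the same gene. Isoforms were not matched, so such peaks need not share a transcript. Most genes, 2477, had 1 hPSC-only peak, 409 had 2 and 136 had 3 or more, up to 6.

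Later peaks were often close by. For the 2976 hPSC-only peaks on genes with a later peak, the gap to the nearest one along the joined exons had a median of 350 nt (quartiles 125 and 1005). It was at most 100 nt for 23.9% of them, above that and up to 500 nt for 35.5%, above that and up to 2000 nt for 27.5% and more than 2000 nt for 13.1%. RNA fragments were about 100 nt long, so a close pair need not be separate methylated sites.

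Within the same genes the differences in width and position were of the same kind. On 1706 genes with tested peaks of both sorts, 2163 hPSC-only peaks were set beside 3839 hPSC peaks that a later peak overlapped. Median widths were 100 and 225 nt, and median log2 enrichments 1.47 and 1.68. The hPSC-only peak of a gene was less enriched than its overlapped peaks in 1126 of the 1706 genes (66.0%), with a median difference of -0.21 on the log2 scale (quartiles -0.52 and 0.14). In the 5′UTR lay 14.8% and 3.70%, and within 200 nt of the stop codon 10.2% and 19.8%.

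Genes that kept a peak were also compared by the input reads in it. These genes were by construction read at the later stage, and the values do not describe the hPSC-only sites. Input density in a later peak, as log2 over that in the overlapping hPSC peak, had a median of -0.14 in DE for 1538 genes with an hPSC-only peak and 0.14 for 6513 genes without one. In PP the medians were -0.56 (1289 genes) and -0.47 (5589 genes), and in hILO 0.65 (1346 genes) and 0.67 (6065 genes). The density is not scaled for library depth, so only the difference between both kinds of gene is read, and it was -0.28 for DE, -0.087 for PP and -0.019 for hILO. The difference was largest in DE but small beside the spread over genes. In DE the quartiles were -1.17 and 0.88 with an hPSC-only peak and -1.04 and 1.01 without one. For genes without a later peak the lists hold no input value, and a lost peak and a lost transcript cannot be told apart.

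In the second experiment, which the rule did not use, a sizeable minority of the hPSC-only sites carried a PP peak. A WT PP peak overlapped 34.3% of hPSC-only peaks (95% Wilson interval 32.8 to 35.9), where 62.4% of all hPSC peaks and 68.6% of the others had one. An A5-KO PP peak overlapped 29.2% (27.8 to 30.7), beside 60.2% of all hPSC peaks. At least 1 of both lists covered 1657 of the hPSC-only peaks (43.9%), beside 70.8% of all. Both lists covered 745 (19.7%), beside 58.9% of the other hPSC peaks. With only peaks of at least 50 input reads in the second experiment, a choice made after seeing the data, 28.1% of hPSC-only and 58.6% of other peaks were covered. By width the WT PP share ran from 29.1% of hPSC-only peaks up to 50 nt to 47.5% of those over 300 nt, and was below that of other peaks in every class. Of the hPSC-only peaks on genes without a PP peak in the first experiment, 346 of 1499 (23.1%) overlapped a WT PP peak, beside 822 of 1813 other hPSC peaks on such genes (45.3%). On genes with a PP peak these counts were 941 of 2249 hPSC-only peaks (41.8%) and 10959 of 15338 others (71.5%). The share was thus lower for hPSC-only peaks on both kinds of gene. The second experiment used total RNA, a Millipore antibody in place of the SYSY antibody, depletion of rRNA from the input and another library kit, so experiment and protocol cannot be told apart.

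**Figure D3:**
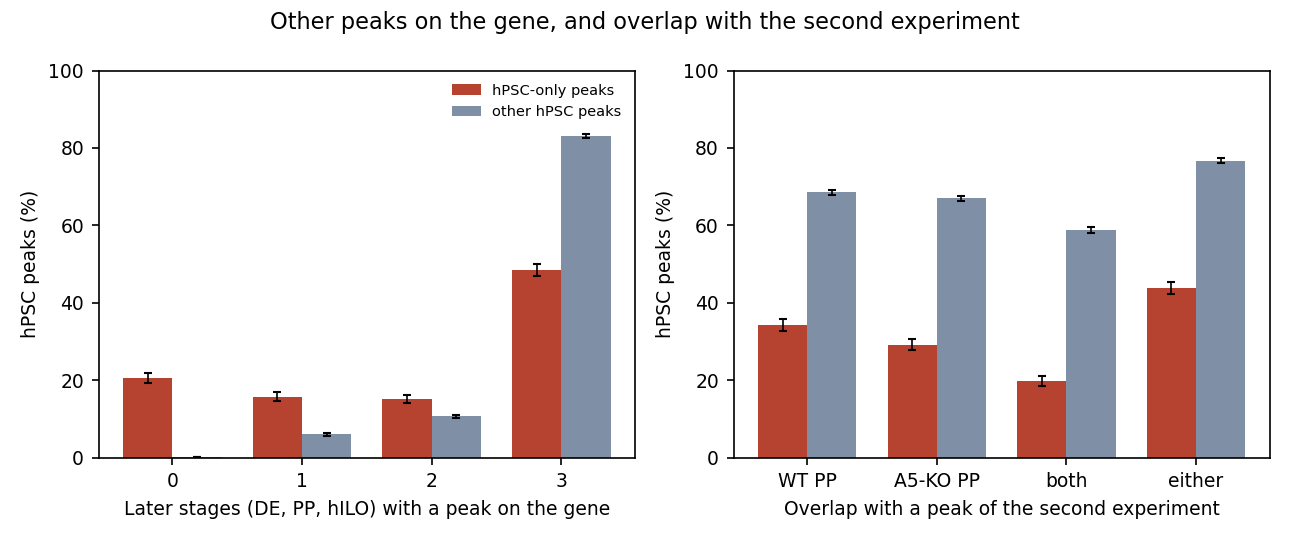
Left, percentage of hPSC peaks by the number of later stages (DE, PP, hILO) in which their gene carried a peak. Right, percentage of hPSC peaks overlapped by a peak of WT PP, of A5-KO PP, of both and of either; in both panels red is hPSC-only, grey is other hPSC peaks and bars are 95% Wilson intervals. All 3 stages are the most frequent class for hPSC-only peaks (48.5%), and 43.9% of them met a peak of the second experiment.

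The 4 sites with the most input reads among those found in WT PP and A5-KO PP alike show how different the depths were. The peak in the 3′UTR of PHF2, which encodes a histone demethylase, held 10564 input and 169239 IP reads in hPSC, 285 and 835 in WT PP and 0 and 49 in A5-KO PP. The 5′UTR peak of TMEM125 held 10041 and 167060 reads in hPSC, 1101 and 1297 in WT PP and 75 and 134 in A5-KO PP. The peak in EPHB6, an ephrin receptor, held 2908 and 20899 reads, then 462 and 2652, then 162 and 1339. In PAQR7, a membrane progestin receptor, the values were 2826 and 38486, then 5162 and 53954, then 23 and 92. PAQR7 was the only one of these 4 with more input reads in WT PP than in hPSC. The hPSC peak of PHF2 was 320 times as dense in input reads as the other hPSC peaks of the gene, that of EPHB6 17.6 times and that of PAQR7 4.99 times, where density is reads over exonic width plus 100 nt. What such local pile-ups in the input contribute was not tested.

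Genes of the pluripotent state held 25 hPSC-only peaks among 93 hPSC peaks tested (26.9%), beside 17.9% over all genes. These 25 lay on 15 of the 31 listed genes with a tested peak, and the median log2 enrichment of the 25 was 1.38, beside 1.51 for all hPSC-only peaks. The genes described here fell into 3 kinds: those without a peak in any other population (FOXD3, PRDM14, UTF1), those with later peaks in DE alone (NANOG, TDGF1, LEFTY2), and those that kept peaks further on. Of the 25 peaks, 6 overlapped a WT PP peak, beside 34.3% of all hPSC-only peaks.

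FOXD3, a forkhead transcription factor of pluripotent cells and neural crest, had 5 hPSC peaks and none in DE, PP, hILO, WT PP or A5-KO PP. Its 4 hPSC-only peaks held 162, 319, 114 and 1877 input reads and 1921, 3242, 1764 and 14454 IP reads from the 5′ end on, with log2 enrichments of 1.17, 1.29, 1.72 and 1.18. The first pair lay in the 5′UTR and the other pair in the coding sequence. The remaining peak, in the 3′UTR, had 40 input reads and so fell under the minimum. The deepest FOXD3 peak was 11.5 times as dense as the other peaks of the gene.

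PRDM14, a regulator that keeps pluripotent cells from differentiating, likewise had 4 hPSC peaks and none elsewhere. Its 3 hPSC-only peaks held 484 and 346 input reads in the coding sequence and 174 in the 3′UTR, with log2 enrichments of 1.45, 1.79 and 1.30. Their input densities were 1.93, 1.05 and 0.95 times the median of the other PRDM14 peaks, and the fourth peak, of 75 nt, held 24 input reads. UTF1, a chromatin-bound factor of undifferentiated embryonic stem cells, had a single peak in the whole series, in its coding sequence, with 572 input and 4746 IP reads and a log2 enrichment of 1.10.

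NANOG, a core homeodomain factor of pluripotency, had 3 hPSC peaks and 2 DE peaks and none later. Its hPSC-only peak covered exons of another isoform with 98 input and 1003 IP reads, while both 3′UTR peaks, with 9 and 14 input reads in hPSC, were overlapped in DE. TDGF1, the Nodal co-receptor, had an hPSC-only peak of 80 input reads, 25 nt from a DE peak, but 92.9% of its 50-base windows occurred elsewhere in the genome, so its reads are uncertain. LEFTY2, a secreted inhibitor of Nodal, had 115 input reads in its hPSC-only 3′UTR peak and 277 in the coding peak that DE kept. On LEFTY2 the DE list held a single peak, with 19898 input reads. In each of these 3 genes the hPSC-only peak was shallow, between 80 and 115 input reads.

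On the genes that kept peaks at PP or hILO, hPSC-only peaks lay beside kept ones. DPPA4, a chromatin factor of early embryonic cells, had 5 hPSC peaks, 3 DE peaks, 1 PP peak and 0 hILO peaks. Its hPSC-only peaks held 1215 and 90 input reads, and the deeper one was met by a WT PP peak of 156 and an A5-KO PP peak of 60 input reads. PODXL, the sialomucin that carries epitopes used to recognise hPSCs, had 7 hPSC peaks, and 4 were overlapped later. Its 3 hPSC-only peaks held 1607, 1204 and 2880 input reads with log2 enrichments of 1.33, 1.52 and 1.18, and were 50, 75 and 75 nt wide. A WT PP peak of 130 input reads overlapped that of 2880 reads, and the others met no peak of the second experiment. SALL4, a zinc finger factor required for pluripotency, had 7 hPSC peaks. All but the most 5′ one, of 467 input reads and 50 nt, were overlapped later. Its paralog SALL2 had 10 hPSC peaks, 8 of them overlapped later. The hPSC-only peak of SALL2 had 2568 input reads, and WT PP and A5-KO PP peaks of 163 and 133 input reads covered it.

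FGF2, the growth factor that sustains hPSCs in culture, had 3 hPSC-only peaks among 4. The peak in the coding part of the long isoform held 102 input reads, and those in the 3′UTR held 252 and 189. The last, with a log2 enrichment of 2.42, was the most enriched of the 25 and was covered by a WT PP peak of 157 and an A5-KO PP peak of 73 input reads. The middle one overlapped, on the opposite strand, a peak of NUDT6 with 292 input reads, so reads of both genes may not be fully separated there. TRIM71, an RNA-binding repressor of mRNAs of differentiated cells, had 1 hPSC-only peak, in its coding sequence, with 3064 input and 33349 IP reads. It was 33.1 times as dense as the other peaks of TRIM71, and an A5-KO PP peak of 761 input reads overlapped it. TERF1, a telomere-binding protein, and DUSP6, a phosphatase of ERK, had 1 each, with 147 and 55 input reads, and kept peaks at every later stage.

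**Figure D4:**
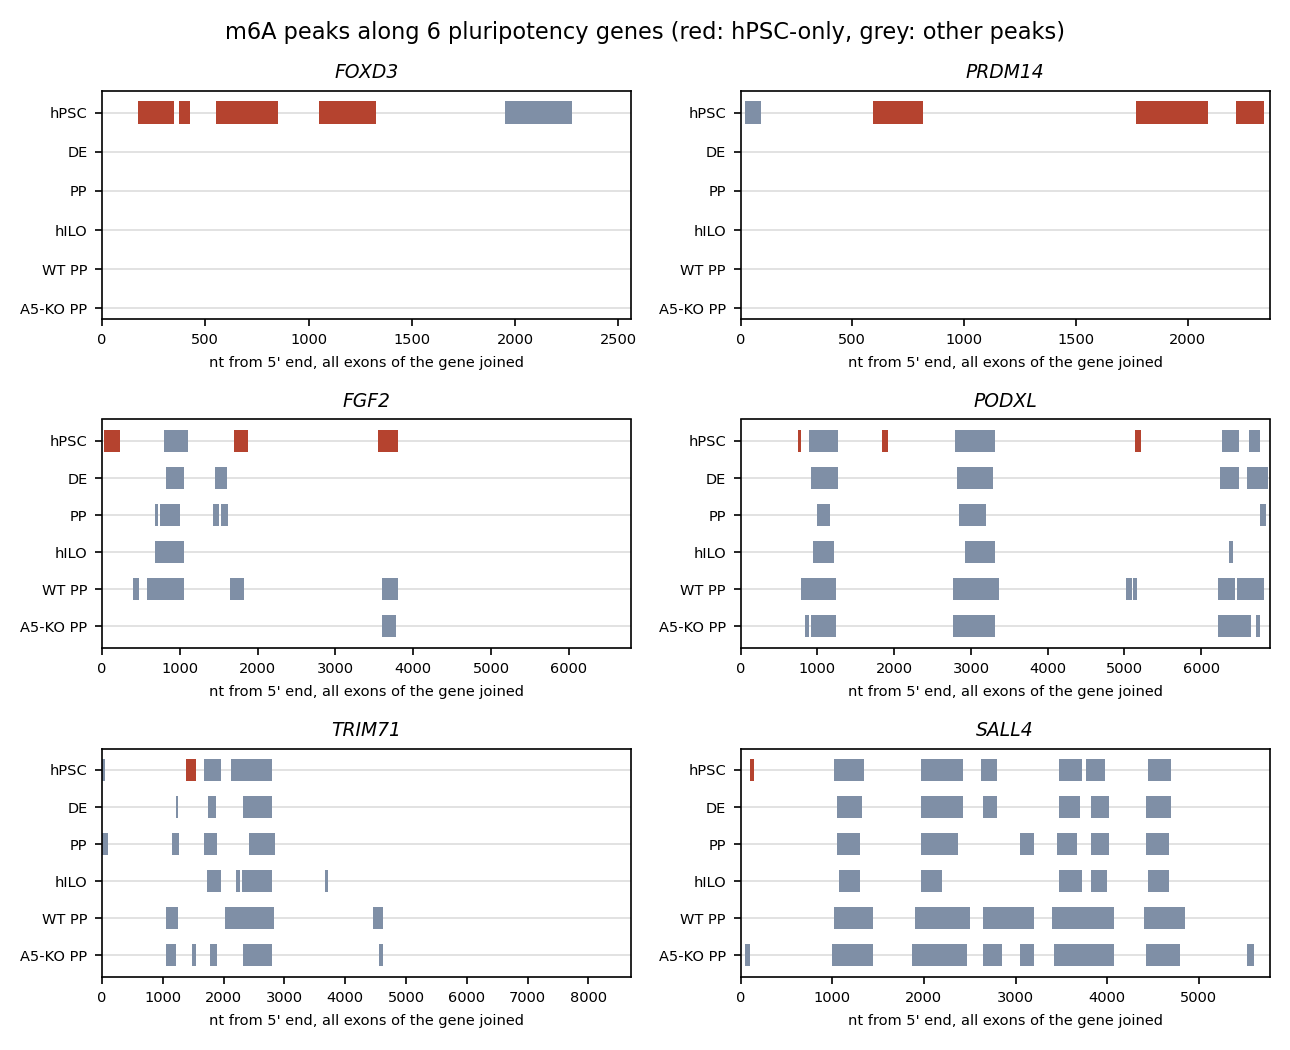
Peaks of 6 pluripotency genes along their joined exons, in nt from the 5′ end, with a row for each population; red bars are hPSC-only peaks and grey bars all other peaks. FOXD3 and PRDM14 have bars in the hPSC row alone, whereas 6 of the 7 hPSC bars of SALL4 recur below.

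**Figure D5:**
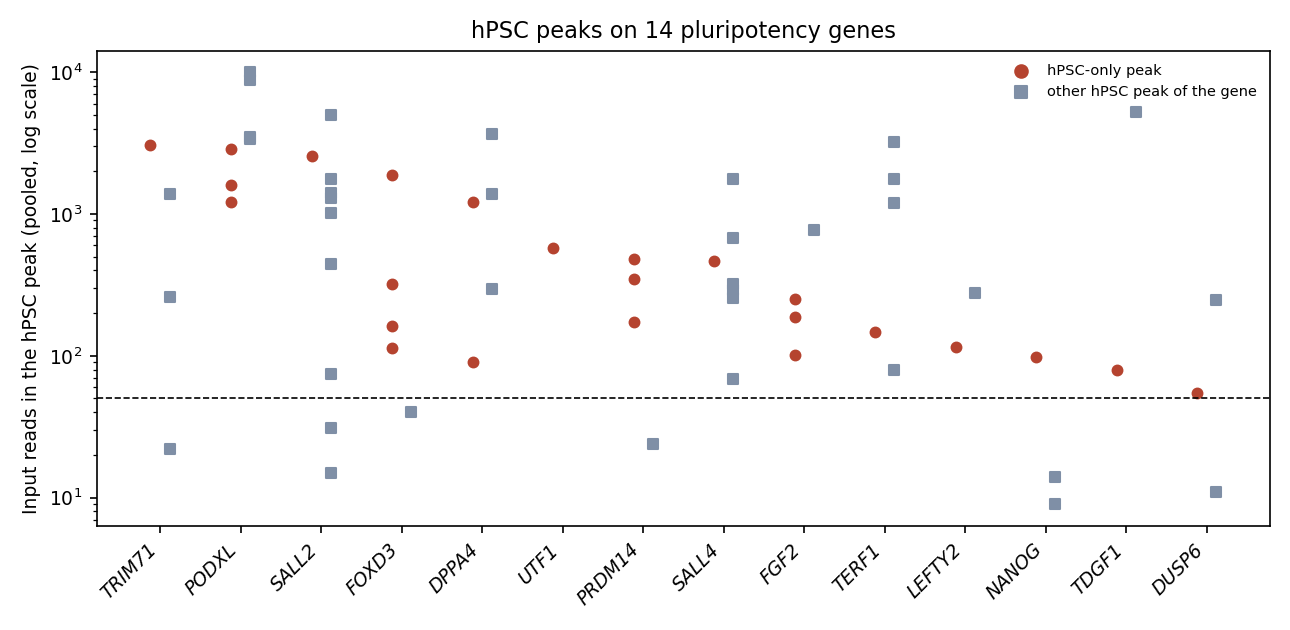
Pooled input reads (log scale) in every hPSC peak of 14 pluripotency genes that hold an hPSC-only peak, red circles for hPSC-only and grey squares for the other peaks; the dashed line marks the minimum of 50 reads. On FOXD3, PRDM14 and NANOG the grey squares lie under the line, and on PODXL all 3 red circles lie below the grey squares.

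The 5 signalling lists held between 11% and 18.9% hPSC-only peaks, beside 17.9% over all genes. Among genes of Nodal, TGF-beta and BMP signalling, 9 of 54 tested peaks were hPSC-only (16.7%), among Wnt genes 10 of 75 (13.3%), among FGF, EGF and RAS-MAPK genes 7 of 37 (18.9%), among Notch genes 10 of 68 (14.7%) and among Hippo genes 8 of 73 (11%). The 9, 8, 5, 7 and 7 genes of these lists with an hPSC-only peak each had a later peak. Of all 3022 genes with an hPSC-only peak 20.7% had none, a share that includes noncoding genes. Of the 2447 protein coding ones 329 had none. BAMBI, a decoy receptor of this family, had a 5′UTR peak of 353 input reads that a WT PP peak of 170 reads overlapped, and SMAD1, a BMP signal transducer, a 5′UTR peak of 313 reads that no peak of the second experiment met. FZD7, a Wnt receptor active in hPSCs, had an hPSC-only peak of 324 reads, where an A5-KO PP peak held 2115. Endoderm markers had 0 hPSC-only peaks of 3 tested and pancreatic and islet markers 1 of 5. The latter lay on CHGA, the granule protein chromogranin A, and held 151 input reads. A WT PP peak of 152 input reads overlapped it.

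Lists of chromatin and RNA modifiers were mostly below the overall share. Of 62 peaks on m6A factors, 4 were hPSC-only (6.45%), among them 1 of 609 input reads on the reader YTHDF2 and 1 of 347 on the reader IGF2BP3. The KMT2 and SET methyltransferases had 13 of 137 (9.49%), the BAF, NuRD and CHD remodellers 19 of 151 (12.6%), Polycomb genes 10 of 59 (16.9%) and DNA methylation enzymes 6 of 40 (15.0%). TET1, which oxidises 5-methylcytosine and is high in hPSCs, had 4 hPSC-only peaks among 12 hPSC peaks, all 4 in its coding sequence and with 529 input reads together. WT PP peaks of 558 and 532 reads lay on those of 131 and 248 input reads, and the one of 99 reads also overlapped a WT PP peak, whereas the one of 51 reads overlapped neither a WT PP nor an A5-KO PP peak. Zinc finger genes, the biggest list, had 129 of 990 (13.0%), and DNA repair and replication genes 14 of 103 (13.6%).

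Higher shares were seen for genes of cell adhesion and for histones, some from few peaks. Cadherin and other adhesion genes had 22 of 98 (22.4%), clustered protocadherins 12 of 51 (23.5%), fibroblast markers 6 of 24 (25%), neural and ectoderm markers 5 of 17 (29.4%) and replication-dependent histones 5 of 11 (45.5%). CLDN6, a tight junction claudin of pluripotent and embryonic epithelial cells, had an hPSC-only 5′UTR peak of 2223 input reads, 43.5 times as dense as its other peaks. COL1A2, a fibroblast collagen chain, had one of 1153 reads in its 5′UTR. H2BC6 and H2BC9, both histone H2B genes, had 425 and 159 input reads in their only hPSC peaks. Cell division genes had 29 of 149 (19.5%), kinesins, dyneins and myosins 28 of 147 (19.0%), cytoplasmic ribosomal proteins 11 of 57 (19.3%), mitochondrial ones 11 of 73 (15.1%), solute carriers 50 of 293 (17.1%), collagens, laminins and integrins 8 of 65 (12.3%) and TRIM and RNF ubiquitin ligases 29 of 175 (16.6%). These lists were not tested, and a share alone sets none of them apart.

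Of the 626 genes without a later peak, 329 were protein coding and 229 long noncoding. A single hPSC peak was listed for 399 of them (63.7%), beside 29.2% of the 10382 genes with a tested hPSC peak. In the second experiment 341 of the 626 (54.5%) carried a WT PP or A5-KO PP peak somewhere on the gene and 285 did not. Over the 10382 genes that share was 89%, and over the 3022 genes with an hPSC-only peak it was 85.0%, so it was lower for the 626. The deepest such peak was on HINT1, a nucleotide hydrolase, with 15069 input and 200437 IP reads over 125 nt of exons outside the longest coding isoform, and the sole other peak of HINT1 in the series was an A5-KO PP peak of 7 input reads. TEX45, a testis-expressed gene, had hPSC-only peaks of 13984 and 6272 input reads and no peak in any other population. The antisense RNA SEMA6A-AS2 had one of 10825 input reads, ADCYAP1R1, the PACAP receptor, one of 9141, and WSCD2 one of 6820. They held 138349, 130159 and 98275 IP reads. SEMA6A-AS2 also had an A5-KO PP peak of 1669 input reads that did not overlap the named peak. WSCD2 had 5 A5-KO PP peaks, and that of 3 input and 60 IP reads overlapped its hPSC-only peak. ADCYAP1R1 had no peak in any other population. In each of these 5 genes a span of at most 150 exonic nt took 6272 or more input reads.

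The same held for the deepest hPSC-only peaks on genes that kept peaks. RNF220, a ubiquitin ligase, had 25257 input and 283172 IP reads over 125 nt, PTMA, prothymosin alpha, 19410 and 382939 over 125 nt, and FAN1, a nuclease of crosslink repair, 12779 and 153350 over 50 nt. They were 333, 144 and 417 times as dense in input as the other hPSC peaks of their gene. Over all hPSC-only peaks with a defined density ratio, 335 of 2370 (14.1%) were at least 10 times as dense as the other peaks of the gene, beside 794 of 11537 other peaks (6.88%).

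Genes with many hPSC-only peaks differed in whether they kept any. PTPRZ1, a receptor tyrosine phosphatase, had 7 hPSC peaks with 1296 input reads and no peak in DE, PP or hILO, and 6 of them were hPSC-only, with between 65 and 570 input reads. Of these 6, 1 overlapped an A5-KO PP peak, of 0 input and 22 IP reads. LINC00707, a long noncoding RNA, had 7 hPSC peaks, 6 of them hPSC-only, and 1 later peak, in DE, with 71 input reads. Of the 6 on LINC00707, 3 overlapped a WT PP or A5-KO PP peak. PCDH18, a protocadherin, had 6 of 9, and kept 3. Its hPSC-only peaks held between 171 and 370 reads, and 5 of the 6 overlapped a WT PP or A5-KO PP peak. MACC1, an activator of MET transcription, had 6 of 8, all between 55 and 124 reads, and each of these 6 was met by both WT PP and A5-KO PP peaks. CRYBG3 had 5 of 13, of which the deepest, 2362 input reads over 150 nt, was 85.1 times as dense as the rest of the gene.

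Among hPSC-only peaks on genes with a symbol, the highest log2 enrichments were near 3. Peaks on genes without a symbol were passed over, 2 of them above these values, up to 3.15. SRGAP3 reached a log2 enrichment of 3.04 with 91 input and 2006 IP reads, SLC16A5, a monocarboxylate transporter, 3.03 with 77 and 1899, SNRPE, a core spliceosomal protein, 3.02 with 50 and 1019, and MOB3C 3.02 with 52 and 1200. NUDT6 reached 3.00 with 292 and 6351 reads, KBTBD11 2.99, ZDHHC23 2.96 with 301 and 6124 reads and the pseudogene ZNF876P 2.96 with 408 and 7893. Input depth was mixed among them, with 50 to 91 reads at SRGAP3, SLC16A5, SNRPE, MOB3C and KBTBD11, and more than the overall median of 131 at NUDT6, ZDHHC23 and ZNF876P. Of these 8, MOB3C alone met no peak of the second experiment. At SRGAP3 and ZDHHC23 the WT PP peak held 0 input reads, and at ZNF876P the WT PP and A5-KO PP peaks held 3814 and 3316. Genes with a peak at every later stage were among them: on SRGAP3 the nearest later peak was 752 nt away, on KBTBD11 75 nt and on ZDHHC23 125 nt.

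Sequence copies and antisense genes touched few of the peaks. At least 50% of the 50-base windows occurred again in the genome for 2.86% of hPSC-only and 3.29% of other peaks. An hPSC peak with more input reads lay on the opposite strand of 3.23% and 4.61%. More than 1 gene identifier was given for 15.9% and 17.3%. The p-value of the peak caller was below 1e-05 for 81.7% of hPSC-only and 92.4% of other peaks. The study's methods state this value as the cutoff for calling peaks, so the list also holds peaks above the stated cutoff. A subset of 15329 hPSC peaks had under 50% of windows copied, no stronger opposite strand, 1 gene identifier, and an input density under 10-fold or not defined. Of these, 2727 were hPSC-only (17.8%), with 43.5% overlapping the second experiment and 21.3% on genes without a later peak. Density was defined only with at least 2 other hPSC peaks on the gene, so pile-ups like that of HINT1 were not removed by it.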

How the data were processed

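m6A-seq libraries of the MEL1 hESC line (MEL1 INSGFP/W in the study's methods) were read from 6 deposited peak lists. Per the labels and the study's methods, the authors used fastp for trimming, HISAT2 for alignment to GRCh38 and exomePeak2 for calling peaks on the IP and input libraries of a population together. Its version and annotation are not given in the sources used here. The deposited read counts per peak are pooled over libraries, and whether they are sums or means is not stated. The authors also deposited a log2 enrichment and a p-value for each peak. These were used as given, and the adjusted p-value was not used.

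Spans were compared on the same strand with a code checked on simulated intervals. Genes, exons and isoforms came from GENCODE 44, and bases from the GRCh38 genome. Peaks were given to the identifier with most exonic bases. Density was input reads over exonic width plus 100 nt, and was compared with the median of at least 2 other hPSC peaks of the gene. Shares carry 95% Wilson intervals (scipy 1.17.1). Members and gene lists were chosen with earlier results of these data known, so nothing was tested. Named genes were all hPSC-only peaks of the pluripotency list, the 2 deepest of each other list, and the top peaks or genes by enrichment, by input, by number of hPSC-only peaks, without later peaks, with peaks at every later stage, and in both lists of the second experiment; of these some are given by count alone and some are not reported here. Alternatives are in the closing section.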

Additional observations from a re-analysis of the deposited data

How the results depend on the processing

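The pooled lists limit every value to a description: no replicate could be left out, no other size factors tried, and input depth differs between stages. No paired analysis was possible because each deposited list pools its libraries. Of 89 recomputed values, 62 moved by less than their interval, for counts by less than 1.5 times, and for the median enrichment by less than 1 SD over peaks. With a minimum of 20 input reads there were 6009 hPSC-only peaks (20.6%), with 100 reads 2346 (16.2%) and with 200 reads 1333 (15.3%), of which 23.4% lay on genes without a later peak, 46.5% on genes with a peak at all 3 later stages, 53.0% of the placed ones in coding sequence, and 42.0% overlapped the second experiment. With no later peak within 100 nt the share was 15.1%, and those 3 gene and overlap values were 24.4%, 44.4% and 41.4%. With overlap on either strand the share was 16.6%. With later peaks of p below 1e-05 alone it was 25.5%, with 23.6%, 37.5% and 50.3%, and a GGAC in 49.7%. With hPSC peaks of p below 1e-05 the share was 16.2%. With hPSC peaks whose IP/input ratio, on the linear scale, was at least 3 there were 1650 (13.9%), with 23.1% without and 46.4% with peaks at every later stage. On the isoform with most overlap 49.7% lay in coding sequence. Without peaks of 10-fold input density the share was 17.3%, and peaks without a defined density stayed in. This subset was chosen after seeing the data, like the subsets by copies, strand and gene identifier and the classes of width. Counting overlaps on exonic parts alone moved no value beyond its interval. The causes were not tested.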
